A study of Mus musculus with 6 samples.

Results

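Genes for microtubule associated proteins and stathmins were followed in the array signals of 6 libraries, 3 from the control group and 3 from the anti-PD-1 group. The list names 10 genes: MAP2, MAP4, MAPT, MAP1A, MAP1B, MAP6, MAP7, STMN1, STMN3 and TUBB3. Each member's row was chosen by its symbol, which had to stand alone, and among several such rows by the highest mean of the 6 signals. By this rule 8 of the 10 were found, of 18630 genes with a row of their own. STMN1 and TUBB3 were measured only in rows that also name a second gene, so they are described beside the members and not counted with them. The mean signal over all 6 libraries chose the row of MAP4, the single member with more than 1 row, whose 2 rows had mean signals of 15.16 and 6.28 on the log2 scale. No difference between the groups entered that rule.

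Per the labels, both groups were subcutaneous tumours in mice, grown from 1000000 cells of Lewis lung carcinoma (LLC, a mouse lung tumour line) injected in Matrigel into the left flank. Control animals received an IgG2a isotype antibody, whose samples the labels call untreated with anti-PD-1. Treated animals received 250 µg of anti-PD-1, an antibody that blocks a brake on T cells, every 3 days into the peritoneum. The design text of the series instead describes LLC cells that survived for 7 days after the antibody, and controls without treatment. Strain, sex and age of the mice are not given in the sources used here. Whether each library is a different mouse is not said, and a p-value below therefore covers the spread among these libraries alone, possibly a technical one.

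Microtubules are polymers of alpha and beta tubulin that grow and shrink at their ends. Structural microtubule associated proteins (MAPs) bind along the lattice and stabilise it, whereas stathmins bind free tubulin dimers and favour shrinkage. MAP2, tau (MAPT) and MAP4 form a family with related repeats that bind microtubules, and MAP1A and MAP1B form another. Many of these genes are best known from neurons, but MAP4 and STMN1 are broadly expressed and several others are also found in tumour cells.

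Properties of the deposited table limit what the names and signs mean. Its headers name a mouse array, while 19850 of 21448 rows carry human Ensembl transcript accessions and 0 carry mouse ones, so genes are called here as the file calls them and the species of the measured transcripts is unsettled. Signals were taken by sample label. In the authors' deposited table the averages lettered C and P fit the signals lettered P and C in 21363 rows, and those of the same letter in 2414, at a tolerance of 0.05. Should the averages be lettered correctly, every sign below would be turned. In 111 rows the averages or the SDs cannot be had from the signals with either lettering, and 0 of the 8 members are among them. Library medians lay between 7.71 and 7.77 on the log2 scale. Libraries correlated at 0.9955 or more within groups and at 0.9823 or less between them (Pearson, over rows that are not independent). In bulk material fewer cells of a type and less RNA per cell cannot be told apart.

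By sample label, MAP2, MAP4, MAP1B and MAP6 were higher in libraries labelled anti-PD-1 and STMN3 was lower, while MAPT, MAP1A and MAP7 did not pass the test. The test was limma over all rows with Benjamini-Hochberg adjustment, and a row was called at an adjusted p under 0.05. In all, 5 of 8 members were called (62.5%), where 29.8% of all rows were. The 4 members called higher stand against 14.7% of all rows in that direction, and the 1 called lower against 15.1%. Signals of the groups did not overlap in 6 of 8 members and in 43.5% of all rows. Members that were both called and at least 2-fold apart numbered 2, MAP2 and MAP1B, and 7.64% of all rows met that rule. The median difference was 0.42 over the members and 0.01 over all rows on the log2 scale. A separate fit kept only rows at least as bright as the median row (7.74) and called 6439 of 10724, a larger share. It held 4 members and called all 4. That fit moderated variances and adjusted p-values over its own rows, so its share differs from 29.8% by more than brightness. The 29.8% may therefore be a low yardstick for lists of mostly bright genes, here and below. The list was drawn up with earlier results of these data known, MAP2 being already among the largest rises, so these shares describe the chosen genes.

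**Figure D1:**
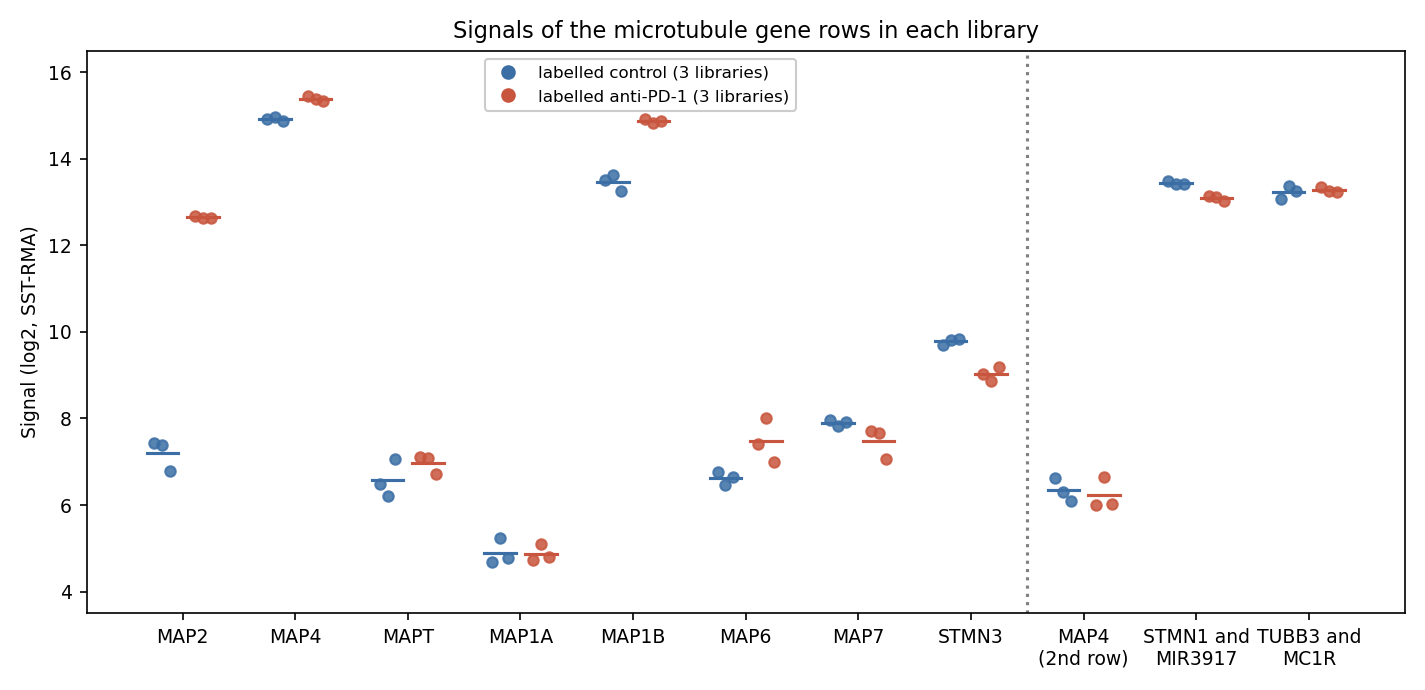
Log2 signals (vertical axis) of the 8 members and, right of the dotted line, of the second MAP4 row and the rows shared by STMN1 and TUBB3 with another gene; points are libraries, blue for control and red for anti-PD-1, and bars are means of 3. MAP2 lies between 6.78 and 7.44 in control libraries and between 12.63 and 12.68 in anti-PD-1 libraries, and the points of MAP1A overlap between the groups.

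MAP2, a MAP of neuronal dendrites, had signals of 7.44, 7.39 and 6.78 in control libraries 1 to 3 and of 12.68, 12.63 and 12.63 in anti-PD-1 libraries 1 to 3, all on the log2 scale. Every anti-PD-1 library was far above every control library, with a gap of 5.19 between the nearest values. Group means were 7.20 ± 0.37 and 12.65 ± 0.03 (SD, n = 3 each), a difference of 5.44 ± 0.18 (SE), or 43.5-fold, with a 95% interval from 5.02 to 5.87. It ranked number 5 among all 21448 rows by the size of the rise. No p is given, since the gene entered the list with this rise known. The spread lay in the control group, where replicate 3 was lowest, and without that library the difference was 5.23. In the authors' deposited table the averages named C and P were 12.63 and 7.42, with a fold change of 37.17. That is the same contrast with the letters exchanged, but from another kind of average. The 7.42 fits the Tukey biweight mean of the control signals (7.41), which gives outlying values less weight, and not their plain mean of 7.20.

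MAP4, the widely expressed relative of MAP2 in non-neuronal cells, changed far less. Control signals were 14.92, 14.98 and 14.88 and anti-PD-1 signals 15.46, 15.38 and 15.34. The groups did not overlap, with a gap of 0.36 between the nearest libraries. MAP4 rose by 0.47 ± 0.08 (SE) on the log2 scale, or 1.38-fold (limma adjusted p = 0.00589, 95% interval 0.27 to 0.67). Its second row, a short stretch inside the gene, had control signals of 6.63, 6.31 and 6.10 and anti-PD-1 signals of 6.01, 6.64 and 6.02, and did not follow the first. There the groups overlapped and the difference was -0.12 ± 0.21 (limma adjusted p = 0.723).

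MAPT, which encodes tau, the axonal MAP, had control signals of 6.49, 6.21 and 7.06 and anti-PD-1 signals of 7.11, 7.08 and 6.72. Control replicate 3 lay within the anti-PD-1 range, so the groups overlapped. The difference of 0.38 ± 0.23 (SE) did not pass (limma adjusted p = 0.268), and its 95% interval from -0.15 to 0.92 holds both no difference and a rise as large as that of MAP4. Without control replicate 3 the difference was 0.62 and passed (limma adjusted p = 0.0434), and without control replicate 2 it was 0.20 (limma adjusted p = 0.57), so single control libraries moved both the size and the call. The intervals of MAP4 and MAPT overlap.

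The MAP1 genes encode long precursors that are cut into a heavy and a light chain, and MAP1B is the form of growing axons. MAP1B had control signals of 13.52, 13.63 and 13.25 and anti-PD-1 signals of 14.92, 14.84 and 14.88. All anti-PD-1 libraries were above all control libraries, by at least 1.21. MAP1B rose by 1.41 ± 0.12 (SE) on the log2 scale, or 2.66-fold, with a 95% interval from 1.14 to 1.69 (limma adjusted p = 0.000181). As with MAP2, control replicate 3 was the lowest library and the anti-PD-1 libraries lay close together (SD 0.20 in control and 0.04 in anti-PD-1, n = 3 each).

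MAP1A, the form of mature neurons, had control signals of 4.68, 5.23 and 4.78 and anti-PD-1 signals of 4.74, 5.10 and 4.79. The groups overlapped almost fully. With a mean signal under 5.09, below which 25% of all rows lay, it was the dimmest member. The difference was -0.02 ± 0.17 (limma adjusted p = 0.95), with a 95% interval from -0.43 to 0.39 that lies wholly below the interval of MAP1B.

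MAP6, also known as STOP, makes microtubules resistant to cold. Its control signals were 6.77, 6.46 and 6.65 and its anti-PD-1 signals 7.42, 8.01 and 7.00. The groups did not overlap, but the nearest values were only 0.23 apart and the anti-PD-1 libraries scattered more than those of any other member (SD 0.51, n = 3). MAP6 was higher by 0.85 ± 0.25 (SE) on the log2 scale, or 1.8-fold (limma adjusted p = 0.0392, 95% interval 0.27 to 1.43). The call was lost without any 1 of the libraries except anti-PD-1 replicate 3, with adjusted p from 0.0558 to 0.112 in those 5 fits, and without anti-PD-1 replicate 2, the highest library, the difference was 0.58.

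MAP7, or ensconsin, recruits the motor kinesin-1 to microtubules. Control signals were 7.96, 7.83 and 7.93 and anti-PD-1 signals 7.70, 7.67 and 7.06. All anti-PD-1 libraries were lower, replicate 3 by the most, yet the gap between groups was 0.13. The difference of -0.43 ± 0.18 (SE) had an unadjusted p of 0.0477 and did not pass after adjustment (limma adjusted p = 0.123, 95% interval -0.85 to -0.01). Without anti-PD-1 replicate 3 the difference was -0.22. MAP7 is a member whose groups did not overlap and which was not called.

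STMN3, a neuronal stathmin, moved the other way from the called MAPs. Control signals were 9.71, 9.81 and 9.83 and anti-PD-1 signals 9.02, 8.86 and 9.18. Every anti-PD-1 library was below every control library, with a gap of 0.53. The signal fell by 0.76 on the log2 scale (SE 0.11, 1.7-fold, limma adjusted p = 0.00203), with a 95% interval from -1.02 to -0.51. The row that names STMN1, the stathmin common in dividing cells, names the microRNA gene MIR3917 as well. It had control signals of 13.48, 13.43 and 13.42 and anti-PD-1 signals of 13.14, 13.11 and 13.02. These groups did not overlap either, and the row fell by 0.35 (SE 0.08, limma adjusted p = 0.0175). Which of the 2 named genes gave that signal cannot be read from the row.

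TUBB3, a beta tubulin of neurons that also occurs in tumours, shares its row with MC1R, the melanocortin receptor. Its control signals were 13.08, 13.37 and 13.25 and its anti-PD-1 signals 13.36, 13.26 and 13.23, so the groups overlapped. The difference was 0.05 ± 0.10 (limma adjusted p = 0.774), and the 95% interval from -0.20 to 0.30 leaves out a change as large as that of STMN3 or MAP1B.

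**Figure D2:**
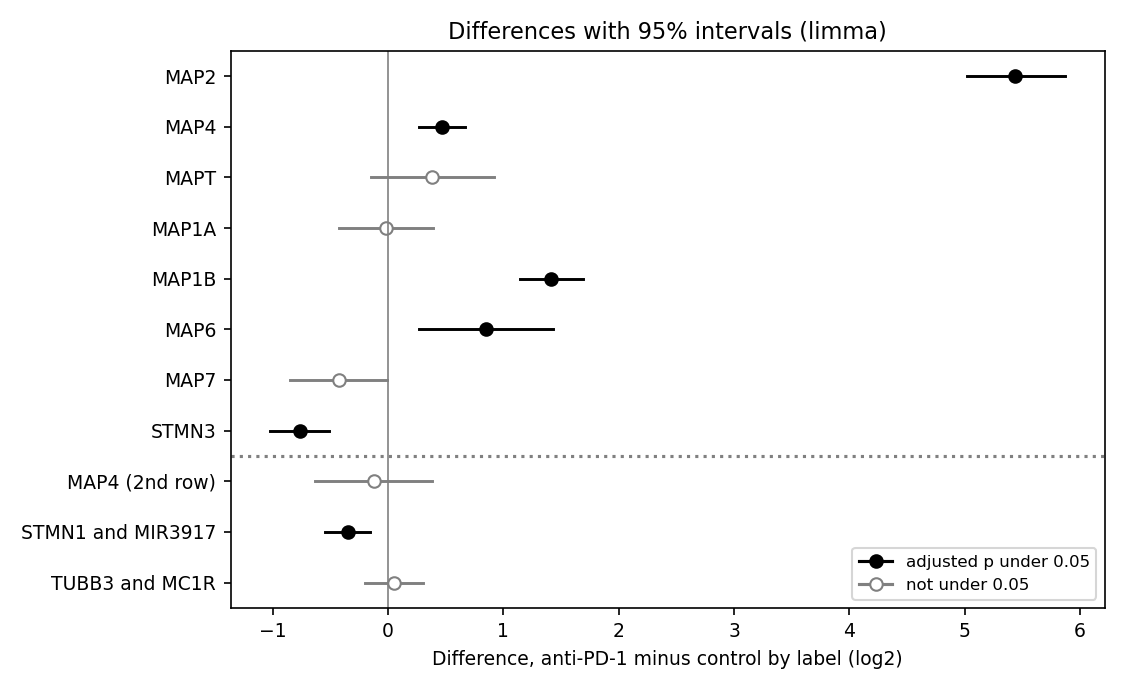
Differences of anti-PD-1 minus control by label (horizontal axis, log2) with 95% intervals from limma, for the 8 members above the dotted line and 3 further rows below it; filled points have an adjusted p under 0.05. The interval of MAP2 runs from 5.02 to 5.87, and those of MAPT and MAP1A cross 0.

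In the file MAP2 lies on chromosome 2 from 209424047 to 209734118 on the plus strand, and MAP1B on chromosome 5 from 72107234 to 72209570 on the plus strand. MAP4 is placed on chromosome 3 from 47850690 to 48089279, minus strand, and its second row at 47878982 to 47879537, within the first. STMN3 is given on chromosome 20 from 63639705 to 63657682, minus strand, a chromosome that the mouse genome lacks. The headers name mm10, a mouse build, but the chromosomes are those of human genes, so which human build the positions follow is unsettled.

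For each called member the 2 genes whose 6 centred signals lay nearest were looked up, as a description over 6 libraries. The 18526 genes compared had a row of their own and an annotated chromosome. Genes of chromosome Y, XIST and TSIX were left out. Nearest to MAP2 were ANOS1, which encodes the matrix protein anosmin, and CEMIP, a hyaluronan-binding protein, at root mean square distances of 0.19 and 0.28 on the log2 scale. For MAP1B the nearest were SELM (0.04), a selenoprotein, and IRS2 (0.05), an insulin receptor substrate. MAP4 ran closest to SEC31A and PLOD1, both at 0.02, and STMN3 to DNM1 (0.03) and MPHOSPH9 (0.04). The nearest to MAP6 were GNA14 and TNKS1BP1, both at 0.12. A distance this small reflects the size of the group difference in large part, since the design has a single contrast.

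Other microtubule associated genes went both ways. Of 28 measured genes in a list of further MAPs, 7 rose and 3 fell, 35.7% of the list against 29.8% of all rows, and the median difference was 0.11 against 0.01. DCLK2, a doublecortin-like kinase that binds microtubules, rose from 7.57 ± 0.12 to 9.41 ± 0.27 (SD, n = 3 each), a difference of 1.84 (limma adjusted p = 0.000182). Its relative DCLK1 rose by 0.84, MTUS1, a microtubule-binding tumour suppressor candidate, by 1.17 and MAP9, a protein of the mitotic spindle, by 0.85. EML1, of the echinoderm MAP-like family, fell from 10.91 to 9.45, and DCX, the doublecortin of young neurons, stood at 4.01 and 3.95 in control and anti-PD-1 libraries. Without anti-PD-1 replicate 2 the list had 6 calls in place of 10.

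Proteins of microtubule plus ends were also mixed, with 5 of 21 higher, 4 lower and a median difference of 0.003. The share called was 42.9% against 29.8% of all rows, but 17 of the 21 genes were brighter than the median row. In the fit of brighter rows 10 of 17 were called, a share close to the 6439 of 10724 rows there. GAS2L3, which links actin and microtubules in dividing cells, fell by 2.01 (12.72 ± 0.09 to 10.71 ± 0.08, SD, n = 3 each, limma adjusted p = 2e-05). CLIP1, the linker CLIP-170, rose by 0.89 and NAV1, a navigator protein of growing neurites, by 0.74, while NAV3 was lower (-0.63) and the linker DST higher (0.55). MAPRE1, the end-binding protein EB1, stood at 14.55 and 14.47 and did not pass. PAFAH1B1, among the members that did not pass, is 1 of the 111 rows whose averages or SDs conflict with the signals.

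Of 11 genes for the remaining stathmins and for severing enzymes, 1 rose and 3 fell, with a median of -0.20, and the 36.4% called is near the 29.8% of all rows. The neuronal stathmins STMN2 (4.51 in control and 4.39 in anti-PD-1 libraries) and STMN4 (3.99 and 4.44) had signals below 5.09 and did not pass. SPAST, the severing enzyme spastin, rose by 0.53. FIGNL1, a fidgetin relative, was lower (-1.13), as was KATNBL1 (-0.55).

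Tubulins, the building blocks themselves, differed by less than 2-fold in each of 21 measured genes, with 4 higher, 8 lower and a median of -0.22. The share called was 57.1% against 29.8% of all rows, but 16 of the 21 genes were brighter than the median row. In the fit of brighter rows 13 of 16 were called, beside 6439 of 10724 rows. Among beta tubulins TUBB2A rose from 11.71 to 12.23 (limma adjusted p = 0.049) and TUBB2B from 5.62 to 6.07. TUBB4B fell from 15.95 to 15.15 (limma adjusted p = 0.000507), TUBB4A from 12.21 to 11.79, TUBB6 from 12.24 to 11.87 and TUBB8 from 11.76 to 10.80. The main beta tubulin gene TUBB stood at 15.74 and 15.64 and did not pass. Among alpha tubulins TUBA1A rose from 15.50 to 15.84 and TUBA4A from 15.31 to 15.69, whereas TUBA1B fell from 17.51 to 17.18 and TUBA3E from 9.78 to 9.34. Both gamma tubulins, which nucleate microtubules, were lower: TUBG1 went from 15.42 to 14.66 and TUBG2 from 13.70 to 13.14.

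The 8 other tubulins that did not pass were TUBA1C (-0.22), TUBA3C (-0.38), TUBA3D (-0.49), TUBA8 (-0.11), TUBAL3 (0.11), TUBB1 (0.29), TUBD1 (0.02) and TUBE1 (-0.13). TUBA3D, TUBAL3 and TUBB1 had mean signals below 5.09. Alpha and beta tubulin genes include near-identical copies, such as TUBA3C, TUBA3D and TUBA3E, whose rows may share signal, so single values of these are uncertain. The count depended on the libraries, with 6 calls without control replicate 3, 5 without anti-PD-1 replicate 2 and 7 without anti-PD-1 replicate 3. With libraries centred on their medians 2 tubulins rose and 10 fell.

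**Figure D3:**
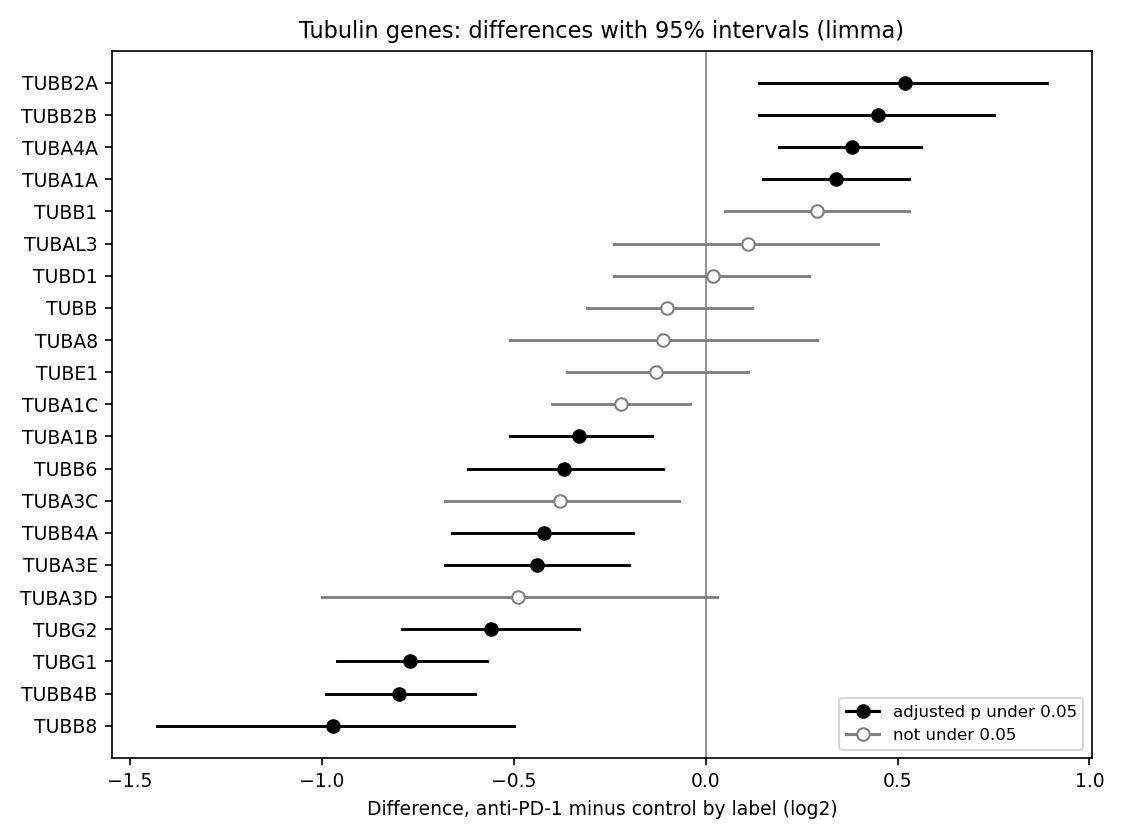
Differences of anti-PD-1 minus control by label (horizontal axis, log2) with 95% intervals from limma for 21 tubulin genes, ordered by size; filled points have an adjusted p under 0.05. The differences run from -0.97 (TUBB8) to 0.52 (TUBB2A), with 4 filled points above 0 and 8 below.

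Of 30 genes for tubulin folding and modification 4 rose and 2 fell, 20% of the list against 29.8% of all rows. TTLL1 and TTLL7, ligases that add glutamate chains to tubulin, rose by 1.32 (limma adjusted p = 6.6e-05) and 1.13, and TBCEL, a cofactor-like protein, by 0.98. TTLL12 fell from 13.29 to 12.28 and TTLL4, another glutamate ligase, from 11.36 to 10.69. HDAC6, the tubulin deacetylase, stood at 10.76 and 11.04 and the acetyl transferase ATAT1 at 8.42 and 8.45; neither passed. Median centring gave 4 higher and 4 lower.

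Kinases that act on MAPs and stathmins were mostly not called, with 2 of 19 higher and 1 lower, 15.8% against 29.8% of all rows. NUAK1 rose by 0.94 and BRSK2 by 0.55, and MAPK13, a p38 kinase for which stathmin is a known substrate, fell from 9.63 to 8.12 (limma adjusted p = 7.94e-05). The tau kinase GSK3B (13.31 and 13.58) and CDK5 (12.99 and 12.66) did not pass, nor did MARK1 to MARK4. Median centring gave 2 higher and 2 lower, and the 3 calls became 6 with the dimmest 25% of rows left out, 7 with a trended robust prior and 5 with array weights.

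MAPs of the mitotic spindle were mostly lower. Of 23 measured genes 19 fell, 15 of them at least 2-fold, and 1 rose, with a median of -1.24 against 0.01 over all rows. The share called was 87%, where 29.8% of all rows were called and 15.1% were called lower. SPAG5, which holds spindle poles together, fell from 9.87 ± 0.12 to 7.34 ± 0.24 (SD, n = 3 each, limma adjusted p = 3.89e-05). TACC3, a partner of spindle microtubules, fell from 12.99 to 10.63, HMMR from 11.80 to 9.68 and PSRC1 from 8.41 to 5.95. GTSE1 was also lower, by a difference of -2.10. The gene of this list that rose was NUMA1 (0.62), which anchors spindle poles, and it is named after its value was seen. MAP9, also a spindle protein, rose by 0.85 but was counted with the further MAPs, so these counts depend on how the lists were drawn up. Markers of dividing cells moved alongside: 13 of 15 fell and 0 rose, and the mean signal of that list went from between 13.44 and 13.53 in control libraries to between 11.74 and 11.91 in anti-PD-1 libraries. PCNA and CDK1 were the 2 that did not pass, named after their values were seen. The part of dividing cells in the lower spindle genes and in the row of STMN1 was not tested.

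**Figure D4:**
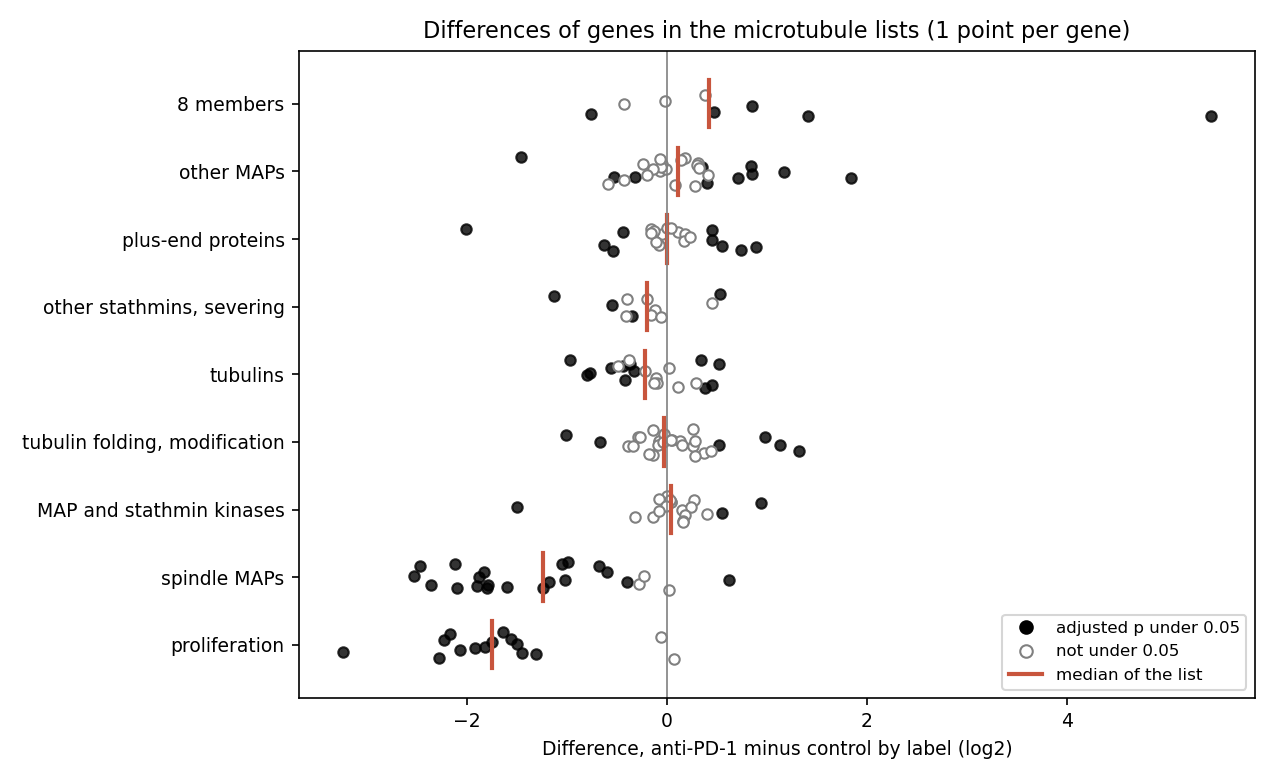
Differences of anti-PD-1 minus control by label (horizontal axis, log2), 1 point per gene, for the 8 members and 8 gene lists; filled points have an adjusted p under 0.05 and red lines are medians. Spindle MAPs and proliferation genes lie mostly left of 0, with medians of -1.24 and -1.75, while the other lists have medians between -0.22 and 0.11 and the members a median of 0.42.

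Because MAP2, MAP1B, MAP6 and STMN3 are best known from neurons, 25 neuronal genes were read beside them. Of these 4 rose, 1 fell and 20 did not pass, 20% called against 29.8% of all rows, with a median difference of 0.18. L1CAM, a neural adhesion molecule, rose from 7.55 ± 0.35 to 10.02 ± 0.15 (SD, n = 3 each, limma adjusted p = 0.000118), and SYT1, a synaptic calcium sensor, from 9.21 to 10.99. DPYSL3 and SNAP25 rose by 0.71 and 0.60, and ENO2 was lower (-0.81). Several markers of neurons were dim in both groups: ELAVL3 stood at 3.39 and 3.46, ELAVL4 at 3.08 and 3.23, NEFM at 3.26 and 3.42 and SYN1 at 4.38 and 4.28. INA (11.14 and 11.42), UCHL1 (10.90 and 11.18) and NES (10.26 and 10.06) were bright in both. In 11 of the 25 the mean signal was below 5.09, and in 7 it was above the median of all rows. The mean signal of the list was between 5.95 and 6.11 in control libraries and between 6.29 and 6.37 in anti-PD-1 libraries. No signal was at 0, and the part of neural cells in the members' values was not tested.

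Markers of lung epithelial tumour cells and of other cell types that a subcutaneous tumour can hold were read by the same measure. Of 6 tumour cell markers 2 rose and 1 fell, 50% called against 29.8% of all rows, with a median difference of 0.03. Their list mean was 10.94 to 10.99 in control and 10.89 to 10.95 in anti-PD-1 libraries. In 1 uncalled marker of the 6 the deposited averages or SDs conflict with the signals. Of 8 T cell markers 7 had mean signals below 5.09 and 0 lay above the median of all rows. In this list 0 rose and 1 fell, 12.5% called against 29.8% of all rows. T cell list means were 4.12 to 4.36 in control and 4.18 to 4.27 in anti-PD-1 libraries. Endothelial markers were below 5.09 in 4 of 7 genes, with 0 called. Macrophage markers were below 5.09 in 3 of 8, with CD68 lower and CD14 higher, 25% called against 29.8% of all rows. Of 8 Schwann cell markers, the glia of nerves, 2 rose and 0 fell, again 25% called, with a median difference of -0.10. Of 10 smooth muscle and muscle markers 5 rose and 0 fell, 50% called against 29.8% of all rows, with a median difference of 0.71. The list mean was at most 8.14 in control libraries and at least 9.39 in anti-PD-1 libraries. The largest differences were those of CNN1 (6.46) and TAGLN (3.71), named after their values were seen. The 5 muscle markers that did not pass were ACTA1 (-0.02), MYH1 (-0.05), MYOD1 (0.15), MYH11 (-0.23) and ACTA2 (0.68). ACTA2 is 1 of the 111 rows whose averages or SDs conflict with the signals. Its anti-PD-1 signals were 9.34, 10.55 and 9.30. Of 8 fibroblast markers 2 rose, both at least 2-fold, and 0 fell, 25% called against the same 29.8%. The median difference was 0.29. The fibroblast list mean was at most 6.61 in control libraries and at least 7.17 in anti-PD-1 libraries. The part of all these cell types in the members' differences was not tested.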

How the data were processed

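Values were log2 signals per gene made with SST-RMA, per the file headers; the submitters' processing notes name Transcriptome Analysis Console without a version. From the authors' deposited table came also the group averages, the SDs and signed fold changes (each treated as a score) and the p-value and false discovery rate of a row. Its signals equalled those of the series value table (largest difference 0.0). Of 22206 identifiers 21448 had values, 20406 of them with 1 symbol; the rest of the identifiers were not used here. Averages were compared with Tukey biweight means of the signals, at tolerances of 0.05 for averages and 0.02 for SDs.

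Control was subtracted from anti-PD-1 by sample label, and the difference tested across all 21448 rows and 6 libraries with limma 3.58.1 in R 4.3.3 (lmFit, eBayes, 2-sided, group as the only term). P-values were adjusted over all rows by Benjamini-Hochberg, with 0.05 as the threshold. Intervals of 95% use the moderated SE. The fit was tested on simulated data with known changes, 50 rows for each fold. It called 0 of them at 1.25-fold, 13 at 1.5-fold, 29 at 2-fold and 46 at 4-fold. Of 21248 unchanged rows 2 were called. A gene that did not pass may therefore still differ, even by 2-fold. Far fewer rows were changed there than were called in the data, so the adjusted threshold was not the same. Genes of the wider lists are represented by their row of highest mean; up to 5 called genes with the largest differences are named per list, beside some uncalled genes picked for their role; 1 gene of these lists is not reported here by name. The members and lists were chosen with earlier results of these data known, so no list test was run. Alternatives were other scalings, filters on dim rows, variance models, a replicate block, thresholds and removal of each library. Scanner intensities and background were not used here, so precision rests on the number of arrays. No sequence is shown, since the reference tables at hand are of mouse genes and the accessions in the file are human.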

Additional observations from a re-analysis of the deposited data

How the results depend on the processing

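Of 270 values recomputed under alternatives, 248 kept their direction and side of the threshold or, for counts, stayed within 1.5 times. All alternatives run for MAP2, MAP1B, STMN3 and MAP7 did so. The MAP1A difference, near 0 throughout, turned positive without control replicate 2 (0.15), anti-PD-1 replicate 1 (0.05) and anti-PD-1 replicate 3 (0.02), within a range of -0.13 to 0.15, and MAP4 turned to -0.12 in its second row. Libraries of the same replicate number did not deviate together (correlations 0.013, -0.024 and 0.013), so the numbers give no pairing. With a replicate block the MAP6 difference of 0.85 lost its call (limma adjusted p = 0.0649), tubulin calls went from 12 to 7 and all called rows from 6391 to 5363. Without each library in turn called rows ranged from 4901 to 5452, members from 4 to 5, further MAPs from 6 to 9 and tubulins from 5 to 10. An adjusted p under 0.01 kept 3870 rows and 4 members, and an adjusted p under 0.05 with a difference of at least 2-fold left 1639 rows and 2 members, fewer by construction. Calls among kinases of MAPs rose from 3 to 6 with the dimmest 25% of rows left out, to 7 with a trended robust prior and to 5 with array weights; the cause was not tested. MAPT, MAP1A, MAP6 and MAP7 were dimmer than the median row (7.74), so they had no value with rows below the median left out, and MAP1A had none with the dimmest 25% left out.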

Other observations

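The number that follows the prefix of an array identifier equalled the annotated chromosome in 5670 of the 20881 rows that carry both, and in 3 of the 8 members (MAP2, MAP1B and MAP7). The row named MAPT, annotated to chromosome 17, carries 13 in its identifier, and the row named STMN3, annotated to chromosome 20, carries 17.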
